A study of Mus musculus with 33 samples.

Results

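Glucose enters a muscle fibre through facilitative transporters, is trapped inside as glucose 6-phosphate by hexokinases, and is then either stored or passed on to glycolysis. The 10 genes described here cover this entry step and its regulation: the transporter genes Slc2a1, Slc2a3, Slc2a4 and Slc2a12, the hexokinase genes Hk1 and Hk2, and the PFKFB genes Pfkfb1, Pfkfb2, Pfkfb3 and Pfkfb4. They were chosen by symbol, with earlier results of these data known, as rows of the count tables, which hold 23420 genes. All 10 were found and passed the filter on low counts. The RNA was from the quadriceps of adult C57BL6 males, either null for Actn3 (KO) or wild type (WT). Actn3 encodes alpha-actinin-3, a Z-disc protein of fast muscle fibres. One intraperitoneal dose of dexamethasone sodium phosphate, a synthetic glucocorticoid, was given at 20 mg/kg, and controls had saline, with muscle taken at 3 h or 24 h. At 3 h there were 5 KO dexamethasone, 3 KO saline, 5 WT dexamethasone and 3 WT saline libraries. At 24 h there were 5 KO dexamethasone, 3 KO saline, 5 WT dexamethasone and 4 WT saline libraries. The series asks how the Actn3 genotype bears on the response of muscle to dexamethasone.

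Slc2a4 encodes GLUT4, the insulin-responsive transporter of muscle and fat, which moves from internal vesicles to the cell surface when insulin or contraction calls for it. Slc2a1 encodes GLUT1, the basal transporter of many tissues, Slc2a3 encodes GLUT3, a high-affinity transporter best known from neurons, and Slc2a12 encodes GLUT12. Hk2 is the main hexokinase of adult skeletal muscle, and Hk1 is the more widely expressed form. The PFKFB enzymes are bifunctional: their kinase domain makes, and their phosphatase domain removes, the fructose bisphosphate that acts as the strongest known activator of phosphofructokinase. PFKFB3 is known for a high ratio of kinase to phosphatase activity, and its gene and Pfkfb4 are known targets of hypoxia. Glucocorticoids are known to lower insulin-stimulated glucose uptake in muscle.

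Libraries held 19663773 to 42756569 gene counts, with a median of 29940832, and 15199 to 16111 genes were detected. Actn3 was at 31.9 to 84.1 CPM in the 16 KO libraries, against 6960 to 9700 CPM in the 17 WT libraries, so every library matched its genotype label. CPM is the count of a gene scaled to a common library total after TMM normalization. The dexamethasone labels at 3 h were checked on 8 known glucocorticoid receptor targets, of which 7 were higher in KO muscle and 7 in WT muscle. At 24 h 1 of the 8 was higher and 1 lower in KO muscle, and 1 higher and 2 lower in WT muscle. These targets thus do not check the labels at 24 h. The 6 fibre markers, Ckm and Acta1 among them, summed to at least 100000 CPM in every library. Replicate numbers used here follow the order of the libraries in the series, as no label numbers them. The names of 5 libraries carry ML1716, KO dexamethasone replicate 5 at 3 h, KO dexamethasone replicates 4 and 5 and WT dexamethasone replicate 5 at 24 h, and WT saline replicate 4 at 24 h. Some of these stood apart over all genes: WT dexamethasone replicate 5 at 24 h gave a chi-square per degree of freedom of 93 to 134 against the other 4 libraries of its group, which gave 13.7 to 29.2 among themselves, and WT saline replicate 4 gave 73.9 to 92.3, against 24.8 to 26.6 among the other 3. KO dexamethasone replicate 5 at 24 h gave the highest values, 117 to 239, against 22.9 to 95.5 among the other 4 libraries of its group. KO dexamethasone replicate 5 at 3 h gave 54.2 to 119, against 21.6 to 70.4 among the other 4. Without the 5 libraries the responses of Pfkfb3 and Pfkfb4 and the low Slc2a3 of KO muscle described below were called as with them, and 3 calls were lost, on Slc2a1 and Slc2a12. The labels do not state whether libraries are separate animals, and p-values measure the spread between libraries.

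Levels of different genes were set side by side per kilobase of exon. By the median over the 33 libraries, Slc2a4 stood first at 144 CPM per kb, followed by Hk2 at 68.8 and Pfkfb3 at 50.5 CPM per kb. Pfkfb1 had 17.4, Pfkfb4 11.2 and Pfkfb2 4.12 CPM per kb. Slc2a12 (3.0), Slc2a1 (2.11), Hk1 (1.94) and Slc2a3 (1.45 CPM per kb) were the lowest. The order differed between groups: Pfkfb3 averaged 197 and Slc2a4 163 CPM per kb in WT dexamethasone libraries at 24 h, and Pfkfb4 averaged 35.2, Pfkfb1 19.5 and Pfkfb3 17.6 CPM per kb in KO dexamethasone libraries at 3 h. Neighbours in this order overlapped in their ranges over libraries, apart from Pfkfb4, at 6.84 to 44.7 CPM per kb, and Pfkfb2, at 3.03 to 5.92 CPM per kb. Slc2a4 made up at least 94.6% of the summed level per kb of the 4 transporters in every library, and Hk2 made up at least 96.1% of the 2 hexokinases in every library. Over the 8 group means of log2 CPM, Pfkfb3 spanned 3.51, Slc2a3 3.04, Pfkfb4 2.05 and Hk2 1.28. The other 6 genes spanned 0.352 (Hk1) to 0.887 (Slc2a1).

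**Figure D1:**
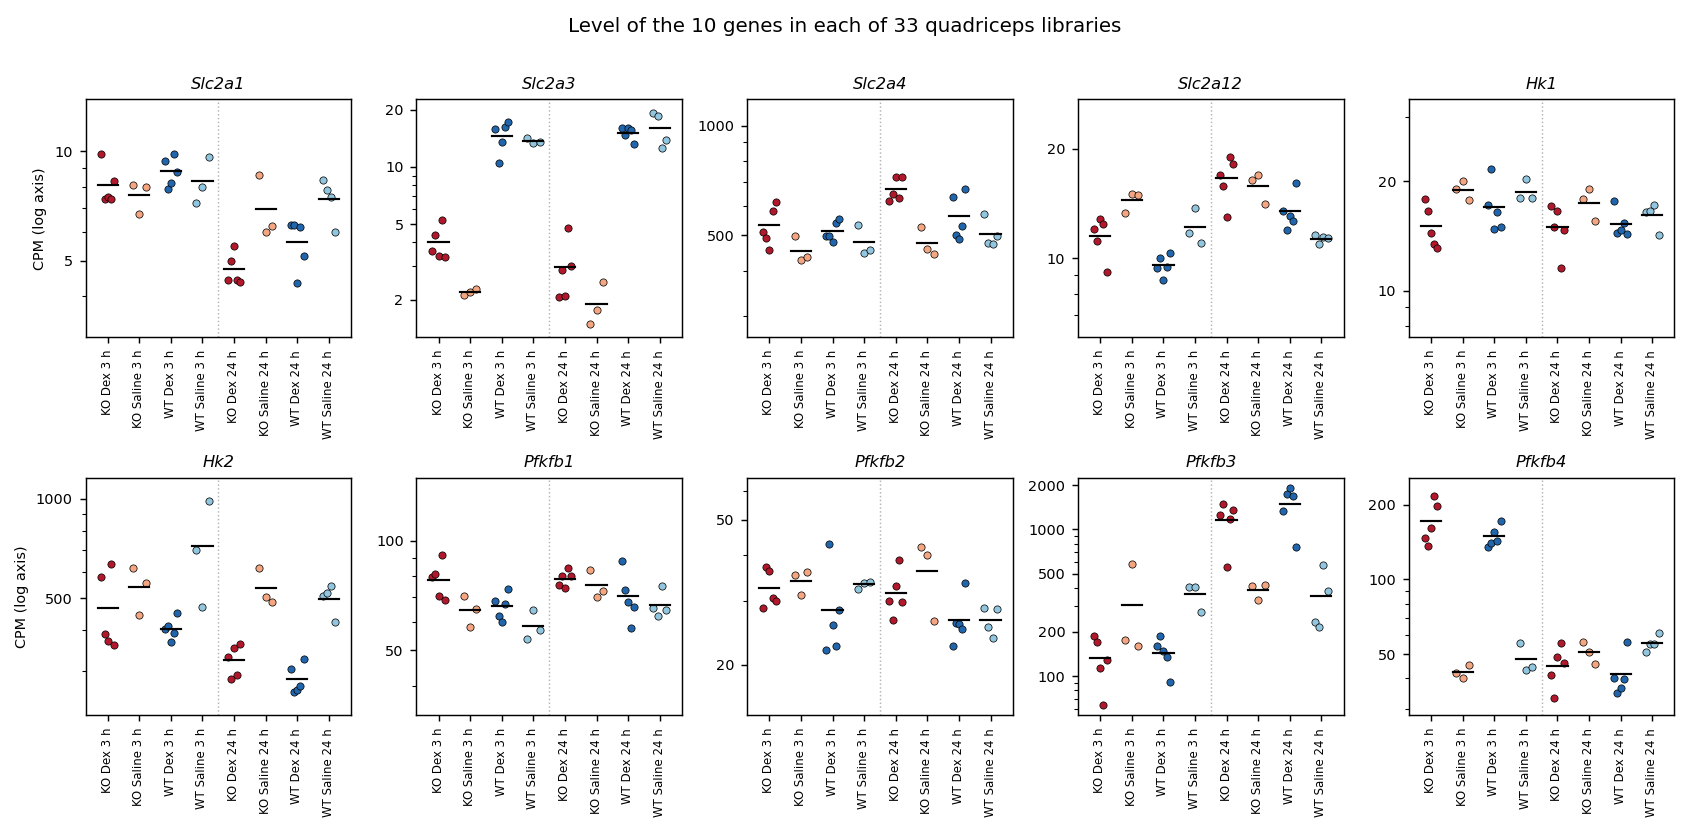
Each panel shows 1 gene, with CPM on a log axis and 1 point per library in the 8 groups (dark red KO dexamethasone, orange KO saline, dark blue WT dexamethasone, light blue WT saline; the bar is the group mean, and the dotted line parts 3 h from 24 h). Pfkfb4 is high in the 10 dexamethasone libraries at 3 h, Pfkfb3 in the 10 dexamethasone libraries at 24 h, with KO replicate 3 the lowest at 551 CPM, below the highest saline library, and Slc2a3 is low in all 16 KO libraries.

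In the early response to dexamethasone, Pfkfb4 rose in both genotypes at 3 h while Pfkfb3 fell, in KO muscle only with saline replicate 2 included, and at 24 h Pfkfb3 had turned far above saline while Pfkfb4 was back near it. Slc2a12 fell at 3 h, Hk2 fell at 24 h in both genotypes and at 3 h in WT muscle, and Slc2a1 fell at 24 h. Slc2a4 rose in KO muscle at 24 h and Slc2a3 in KO muscle at 3 h. At 3 h, edgeR's quasi-likelihood test with Benjamini-Hochberg adjustment over 13955 genes called 4 of the 10 genes in KO muscle, 2 higher and 2 lower, where 17.5% of all genes were called. In WT muscle at 3 h it called 4 of 10, 1 higher and 3 lower, against 14.9% of all genes. At 24 h it called 4 of 10 in KO muscle, 2 higher and 2 lower, against 10.9% of all genes, and 4 of 10 in WT muscle, 1 higher and 3 lower, against 13.8%. The 10 genes were chosen with earlier results of these data known. Their counts beside these shares therefore do not test whether they respond more often than other genes. The median log2 fold change of the 10 genes lay between -0.06 and 0.01 in the 4 comparisons while that of all genes lay between -0.01 and 0.01.

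**Figure D2:**
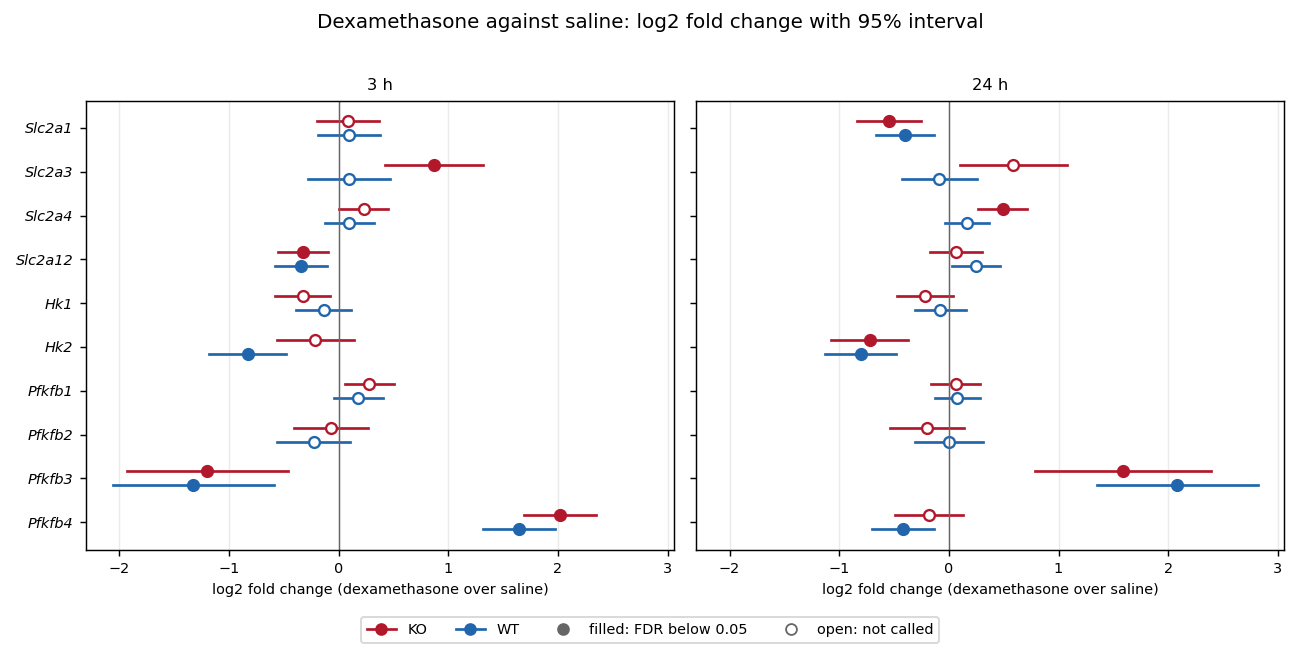
Log2 fold change of dexamethasone over saline (x axis) for each gene, at 3 h on the left and 24 h on the right, with KO above WT, lines for 95% intervals, and filled points for a false discovery rate below 0.05. Pfkfb3 and Pfkfb4 lie on opposite sides of 0 at 3 h in both genotypes, and Pfkfb3 lies above 1.5 at 24 h.

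Pfkfb4 (chr9:108991778-109032228, plus strand, GRCm38) gave the clearest response at 3 h. Its level was 146, 136, 161, 218 and 198 CPM in KO dexamethasone libraries, against 41.9, 40.2 and 45.1 CPM in KO saline libraries. WT dexamethasone libraries had 135, 140.4, 156, 144 and 172 CPM, against 55.6, 43.2 and 44.4 CPM in WT saline libraries. The lowest dexamethasone library at 3 h stood above the highest of all other libraries of the series in both genotypes. The log2 fold change was 2.02 ± 0.16 (SE) in KO muscle (adjusted p = 3.18e-11), a 4.05-fold level, and 1.64 ± 0.16 in WT muscle (adjusted p = 2.13e-09), a 3.13-fold level. By 24 h the rise was gone. KO dexamethasone libraries then had 41.2, 33.4, 48.7, 55.5 and 45.9 CPM, against 55.97, 50.9 and 45.8 CPM in KO saline libraries, and the groups overlapped. The WT dexamethasone libraries had 40.04, 34.9, 36.7, 39.6 and 56.1 CPM, against 50.9, 54.7, 55.02 and 61.1 CPM in WT saline libraries. Replicate 5 of WT dexamethasone stood within the saline range, and the other 4 stood below it. The WT difference at 24 h was -0.42 ± 0.14 on the log2 scale (adjusted p = 0.039). That call was lost without any 1 of WT saline replicates 2, 3 or 4 or of WT dexamethasone replicates 1, 2, 3 or 4, with adjusted p from 0.0702 to 0.131.

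Pfkfb3 (chr2:11471433-11554077, minus strand) ran the other way. At 3 h it had 188, 171, 113, 63.4 and 129 CPM in KO dexamethasone libraries, against 177, 578 and 159.8 CPM in KO saline libraries. In WT muscle it had 161, 188, 147, 135 and 90.6 CPM with dexamethasone, against 405, 405 and 274 CPM with saline. The WT groups did not overlap, whereas in KO muscle saline replicates 1 and 3 lay inside the dexamethasone range and replicate 2 far above it. Its log2 fold change was -1.33 ± 0.36 in WT muscle (adjusted p = 0.00901). In KO muscle it was -1.20 ± 0.36 (adjusted p = 0.0182), but without KO saline replicate 2 it was -0.34 (adjusted p = 0.651), and without KO dexamethasone replicate 4 the adjusted p was 0.0556. The KO call at 3 h was also lost with limma-voom (-0.82, adjusted p = 0.0579) and with only the groups compared (adjusted p = 0.053).

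At 24 h Pfkfb3 was the most raised of the 10 genes. KO dexamethasone libraries had 1250, 1487, 551, 1172 and 1354 CPM, against 408, 332 and 419.5 CPM in KO saline libraries. WT dexamethasone libraries had 1340, 1757, 1910, 1679 and 762 CPM, against 235, 217, 572 and 382 CPM in WT saline libraries. The groups did not overlap in either genotype, although KO replicate 3 and WT replicate 5 stood well below the other dexamethasone libraries. On the log2 scale the change was 1.59 ± 0.39 in KO muscle (adjusted p = 0.00747) and 2.08 ± 0.36 in WT muscle (adjusted p = 0.000168). These are 3.01-fold and 4.24-fold levels. Without KO saline replicate 2 the KO value was 1.49, with an adjusted p of 0.0535.

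The change of each response between 3 h and 24 h was tested as a difference of differences. In KO muscle 3 of the 10 genes were called, 1 higher and 2 lower, where 10.8% of all genes were called, and in WT muscle 3, 2 higher and 1 lower, where 17.1% were. The response of Pfkfb3 was higher at 24 h than at 3 h by 2.79 ± 0.53 on the log2 scale in KO muscle (adjusted p = 0.000392) and by 3.41 ± 0.51 in WT muscle (adjusted p = 8.18e-06). Without KO saline replicate 2 at 3 h the KO difference for Pfkfb3 was 1.93 (adjusted p = 0.00823). That of Pfkfb4 differed by -2.20 ± 0.22 in KO muscle (adjusted p = 8.53e-09) and by -2.06 ± 0.21 in WT muscle (adjusted p = 8.78e-09). Between the saline libraries of the 2 times, 0 of the 10 genes were called by edgeR (24 h against 3 h), where 2.47% of all genes were. DESeq2 and limma-voom called 0 there too, and 2 genes, Pfkfb1 and Pfkfb4, had an unadjusted p under 0.05 in edgeR.

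With dexamethasone the mix of the 4 PFKFB genes differed from that with saline. Per kb of exon, Pfkfb4 made up 45.8% of the PFKFB sum in KO dexamethasone libraries at 3 h (SD 8.25), against 13.9% in KO saline libraries (SD 5.25). In WT muscle it made up 43.8% with dexamethasone (SD 4.88), against 12.9% with saline (SD 1.92). At 24 h Pfkfb3 made up 80.8% in KO dexamethasone libraries (SD 7.05), against 59.8% in KO saline libraries (SD 3.74), and 85.7% in WT dexamethasone libraries (SD 6.1), against 57.3% in WT saline libraries (SD 9.7). The summed level at 3 h was 76.8 CPM per kb in KO dexamethasone libraries, against 69.8 in KO saline libraries, and 70.1 in WT dexamethasone libraries, against 76.8 in WT saline libraries. The 5 KO dexamethasone sums at 3 h lay between 70.7 and 80.1 CPM per kb, and the 3 KO saline sums between 51.5 and 103, with replicate 2 the highest. At 24 h it was 187 CPM per kb in KO dexamethasone libraries, against 85.3 in KO saline libraries, and 227 in WT dexamethasone libraries, against 78.2 in WT saline libraries. Pfkfb1, the form named for liver and muscle, and Pfkfb2, known as the heart form, were called by edgeR in none of the 13 comparisons. At an adjusted p just under 0.05, Pfkfb1 was called higher in KO muscle at 3 h by limma-voom (0.0481), without the ML1716 libraries (0.0494) and without KO dexamethasone replicate 5 (0.0497). Pfkfb2 was called lower in WT muscle at 3 h by limma-voom (0.0342) and without WT dexamethasone replicate 2 (0.0491), and higher in KO than in WT saline muscle at 24 h without KO saline replicate 3 (0.0432). Pfkfb1 ran from 53.9 to 91.5 CPM and Pfkfb2 from 22.0 to 42.9 CPM over the 33 libraries. Pfkfb2 shares 19.5% of its exon bases with Yod1 and Gm29427, and the library kit does not mark strand, so its counts are uncertain.

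**Figure D3:**
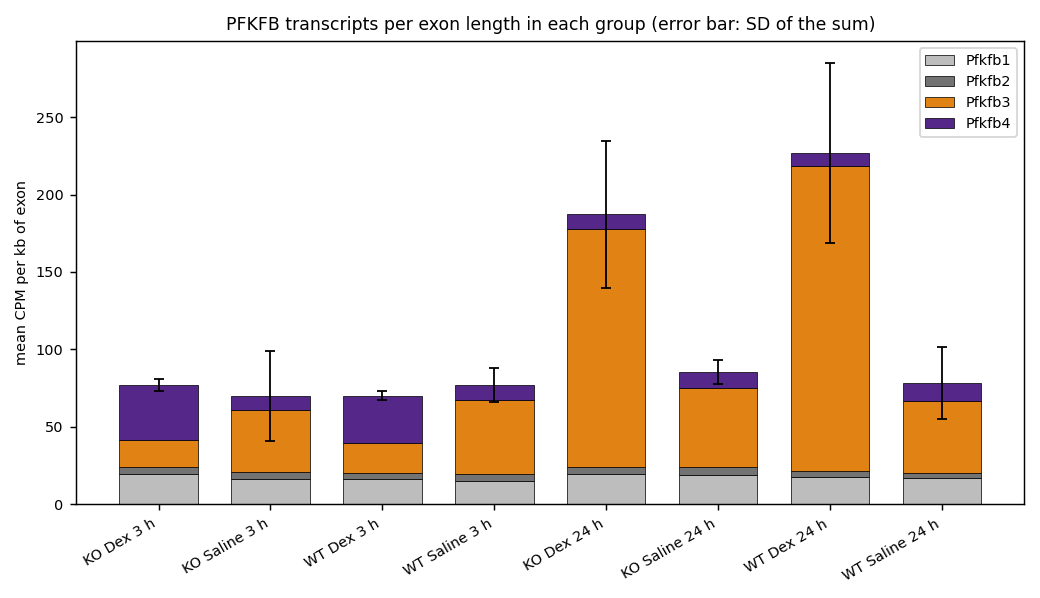
Stacked bars give the mean level per kb of exon (y axis, from 0) of Pfkfb1, Pfkfb2, Pfkfb3 and Pfkfb4 in the 8 groups, with the SD of the sum over libraries. At 3 h the dexamethasone bars hold more Pfkfb4 and less Pfkfb3 than the saline bars, of which the KO one spans 51.5 to 103 CPM per kb over its libraries, and at 24 h the dexamethasone bars reach 187 (KO) and 227 (WT) CPM per kb.

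The promoters of Pfkfb4, Pfkfb3 and Hk2 are shown because these genes had the widest ranges of group means among those in the promoter table, and because both glucocorticoid and hypoxia motifs are known from genes of this pathway. Each line gives the 250 bases before a RefSeq start (GRCm38.p6), 5′ to 3′ on the strand of the gene, with motif matches in capitals. The motifs searched on both strands were the glucocorticoid hexamer AGAACA, the full response element (AGAACA and its reverse complement with 3 bases of any kind between), the hypoxia core ACGTG and the E-box CACGTG, which holds an ACGTG on each strand.
Pfkfb4, chr9:108991652-108991901, plus strand: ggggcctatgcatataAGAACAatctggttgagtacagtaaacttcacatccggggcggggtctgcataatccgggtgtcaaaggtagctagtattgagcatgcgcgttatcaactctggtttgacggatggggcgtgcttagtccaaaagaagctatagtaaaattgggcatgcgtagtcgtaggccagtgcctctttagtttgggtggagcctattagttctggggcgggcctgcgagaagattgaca
Pfkfb3, upstream start, chr2:11553930-11554179, minus strand: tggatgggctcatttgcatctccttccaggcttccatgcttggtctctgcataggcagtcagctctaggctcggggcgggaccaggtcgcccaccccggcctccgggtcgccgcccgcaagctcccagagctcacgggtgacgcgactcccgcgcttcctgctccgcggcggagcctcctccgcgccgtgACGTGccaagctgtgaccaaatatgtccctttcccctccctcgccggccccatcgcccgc
Pfkfb3, downstream start, chr2:11502091-11502340, minus strand: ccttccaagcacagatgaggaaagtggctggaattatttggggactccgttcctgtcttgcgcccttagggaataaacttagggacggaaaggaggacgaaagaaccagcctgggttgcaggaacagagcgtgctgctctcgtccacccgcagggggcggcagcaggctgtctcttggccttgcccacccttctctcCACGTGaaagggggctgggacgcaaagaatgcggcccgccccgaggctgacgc
Hk2, chr6:82774455-82774704, minus strand: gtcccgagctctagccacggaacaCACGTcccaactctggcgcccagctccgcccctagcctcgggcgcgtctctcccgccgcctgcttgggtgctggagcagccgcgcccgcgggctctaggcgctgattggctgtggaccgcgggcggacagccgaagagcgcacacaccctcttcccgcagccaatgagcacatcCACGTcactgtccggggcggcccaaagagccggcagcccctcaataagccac
The Pfkfb4 stretch holds 1 hexamer, which begins 234 bases before the start, and no ACGTG. Each Pfkfb3 stretch holds an ACGTG, 60 bases before the upstream start and, as part of a CACGTG, 53 bases before the downstream start. The Hk2 stretch holds 2 ACGTG matches on its other strand, 226 and 52 bases before the start. Of all 32851 promoters in the RefSeq table, 16.1% hold the hexamer, 16.6% the ACGTG, 6.02% the CACGTG and 0.00913% the full element in these 250 bases. The table held 15 promoters for 8 of the 10 genes, and none of the 15 held the full element. Of the promoters not printed, the hexamer stood in 1 of Hk1 and 1 of Pfkfb2, and the ACGTG in that of Slc2a1 and in 2 of Pfkfb2. These matches are letters found in a window and say nothing about binding.

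Hk2 (chr6:82725025-82774454, minus strand) fell with dexamethasone at 24 h in both genotypes. KO dexamethasone libraries had 331, 284, 353, 292 and 362 CPM, against 616, 505 and 486 CPM in KO saline libraries. The WT dexamethasone libraries had 305, 259, 262, 269.9 and 327 CPM, against 507, 516, 544 and 422 CPM in WT saline libraries. All 10 dexamethasone libraries were below all 7 saline libraries. By edgeR the log2 fold change was -0.72 ± 0.17 in KO muscle (adjusted p = 0.0055) and -0.81 ± 0.16 in WT muscle (adjusted p = 0.000777), levels of 0.606 and 0.572 of saline. At 3 h KO dexamethasone libraries had 578, 389, 369.6, 635 and 359.9 CPM, against 618, 445 and 557 CPM in KO saline libraries. These overlapped, with replicates 1 and 4 of the dexamethasone group high, and the difference of -0.21 ± 0.17 was not called (adjusted p = 0.434). In WT muscle at 3 h dexamethasone libraries had 403, 410.5, 368, 390.4 and 449 CPM, against 702, 469 and 983 CPM in saline libraries. The WT groups did not overlap, and Hk2 fell by 0.83 ± 0.17 on the log2 scale (adjusted p = 0.000575). Without WT saline replicate 3, the highest library, the value was -0.53 (adjusted p = 0.0449). The difference between the genotypes at 3 h, 0.62 ± 0.25, was not called (adjusted p = 0.999, unadjusted p = 0.0183).

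Hk1 (chr10:62268855-62379908, minus strand) was called by edgeR in none of the 13 comparisons and ran from 11.5 to 21.6 CPM. Its lowest dexamethasone difference was -0.33 ± 0.12 in KO muscle at 3 h, where it had 17.9, 16.6, 14.4, 13.4 and 13.1 CPM with dexamethasone, against 19.03, 20.1 and 17.8 CPM with saline. The adjusted p was 0.0602. It dropped under 0.05 with limma-voom (0.0179), with library totals alone (0.0407) and without KO dexamethasone replicate 1 (0.0217).

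Slc2a4 (chr11:69942539-69948188, minus strand), the gene of the insulin-responsive transporter, rose at 24 h in KO muscle. KO dexamethasone libraries had 620.1, 649, 722, 632 and 722 CPM, against 526, 459 and 443 CPM in KO saline libraries. WT dexamethasone libraries had 637, 501, 489, 530.1 and 670.3 CPM, against 571, 475, 473 and 499 CPM in WT saline libraries. The KO groups did not overlap, and in WT muscle 3 of 5 dexamethasone libraries lay inside the saline range. The log2 fold change was 0.49 ± 0.11 in KO muscle (adjusted p = 0.00348) and 0.16 ± 0.10 in WT muscle (adjusted p = 0.299). The difference of the responses, 0.33 ± 0.15, was not called (adjusted p = 0.777, unadjusted p = 0.0356). At 3 h the gene was called in neither genotype, with log2 fold changes of 0.23 ± 0.11 in KO and 0.10 ± 0.11 in WT muscle.

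Slc2a1 (chr4:119108711-119137983, plus strand), the basal transporter gene, fell at 24 h. It had 4.44, 5.01, 5.49, 4.42 and 4.36 CPM in KO dexamethasone libraries, against 8.62, 6.002 and 6.25 CPM in KO saline libraries. The WT dexamethasone libraries had 6.29, 6.27, 4.34, 6.18 and 5.17 CPM, against 8.34, 7.83, 7.49 and 6.01 CPM in WT saline libraries. The KO groups did not overlap, and in WT muscle the lowest saline library lay among the dexamethasone libraries. Its log2 fold change was -0.55 ± 0.14 in KO muscle (adjusted p = 0.0119) and -0.40 ± 0.13 in WT muscle (adjusted p = 0.0368). Without KO saline replicate 1 the KO value was -0.36 (adjusted p = 0.155). The WT call was lost without any 1 of WT saline replicates 1, 2 or 3 or of WT dexamethasone replicates 3 or 5, with adjusted p from 0.0664 to 0.134. The response at 24 h minus that at 3 h was -0.64 ± 0.20 in KO muscle (adjusted p = 0.0357) and -0.49 ± 0.19 in WT muscle (adjusted p = 0.0765). The KO call on this difference was lost without any 1 of KO saline replicates 2 and 3 at 3 h, KO dexamethasone replicate 1 at 3 h, KO saline replicate 1 at 24 h and KO dexamethasone replicates 1, 4 and 5 at 24 h (adjusted p from 0.0522 to 0.196). The WT difference was called without WT saline replicate 3 at 3 h (adjusted p = 0.0408) and without WT saline replicate 4 at 24 h (adjusted p = 0.0422).

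Slc2a12 (chr10:22645011-22704285, plus strand) fell by a small amount at 3 h. KO dexamethasone libraries had 12.04, 11.2, 12.8, 12.4 and 9.16 CPM, against 13.3, 15.1 and 14.9 CPM in KO saline libraries. WT dexamethasone libraries had 9.39, 10.02, 8.72, 9.50 and 10.4 CPM, against 11.7, 13.8 and 11.1 CPM in WT saline libraries. Neither pair of groups overlapped. On the log2 scale the change was -0.33 ± 0.11 in KO muscle (adjusted p = 0.0438) and -0.34 ± 0.12 in WT muscle (adjusted p = 0.0425). The KO call was lost without any 1 of KO saline replicates 2 and 3 or KO dexamethasone replicates 2 and 5 (adjusted p from 0.0758 to 0.178). The WT call was lost without any 1 of WT saline replicates 1 and 2 or WT dexamethasone replicates 1, 2, 3 and 4 (adjusted p from 0.0617 to 0.31). At 24 h the gene was not called in either genotype, at 0.07 ± 0.11 in KO and 0.25 ± 0.11 in WT muscle. Its response at 24 h minus that at 3 h was 0.39 ± 0.16 in KO muscle (adjusted p = 0.131) and 0.59 ± 0.16 in WT muscle (adjusted p = 0.00782). Without KO dexamethasone replicate 3 at 24 h the KO difference was called (adjusted p = 0.0396). Tbpl1 on the other strand overlaps 9.61% of the exon bases of Slc2a12.

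Slc2a3 (chr6:122727809-122801640, minus strand), the gene of the high-affinity transporter GLUT3, was lower in KO than in WT muscle under every treatment and time. At 3 h it had 3.60, 4.41, 3.41, 5.26 and 3.34 CPM in KO dexamethasone libraries, against 15.8, 10.5, 13.5, 16.1 and 17.2 CPM in WT dexamethasone libraries. Saline libraries at 3 h had 2.13, 2.21 and 2.27 CPM in KO muscle, against 14.2, 13.3 and 13.6 CPM in WT muscle. The genotypes were far apart in both pairs, with the highest KO library below the lowest WT library. At 24 h KO dexamethasone libraries had 2.07, 2.87, 2.09, 4.75 and 2.998 CPM, against 15.97, 14.8, 16.1, 15.7 and 13.1 CPM in WT dexamethasone libraries. KO saline libraries at 24 h had 1.49, 1.75 and 2.47 CPM, against 19.2, 18.6, 12.6 and 13.9 CPM in WT saline libraries. Over the whole series the 16 KO libraries ran from 1.49 to 5.26 CPM and the 17 WT libraries from 10.5 to 19.2 CPM, without overlap.

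The log2 fold change of Slc2a3 in KO over WT was -1.87 ± 0.17 with dexamethasone at 3 h (adjusted p = 1.13e-08) and -2.64 ± 0.23 with saline at 3 h (adjusted p = 7.74e-09). At 24 h it was -2.39 ± 0.18 with dexamethasone (adjusted p = 5.01e-11) and -3.07 ± 0.24 with saline (adjusted p = 1.93e-10). The KO level was 0.119 to 0.275 of the WT level in these 4 comparisons, which share no library. Slc2a3 was the only one of the 10 genes called at 3 h, where 1.5% of all genes were called with saline and 3% with dexamethasone. At 24 h with saline Slc2a12 was called too, making 2 of 10 against 3.17% of all genes, and with dexamethasone Slc2a3 alone, 1 of 10 against 5.19%. Slc2a12 was higher in KO saline muscle at 24 h by 0.48 ± 0.12 (adjusted p = 0.0228). Its levels there were 16.4, 16.96 and 14.1 CPM in KO, against 11.6, 10.96, 11.4 and 11.3 CPM in WT libraries. That call was lost without any 1 of KO saline replicates 1 and 2 or WT saline replicate 2 (adjusted p from 0.055 to 0.162). With dexamethasone at 24 h it was higher by 0.30 ± 0.10 without being called by edgeR (adjusted p = 0.0736). It was called there by limma-voom (0.00866) and without KO dexamethasone replicate 3 (0.0159) or WT dexamethasone replicate 5 (0.0184). With dexamethasone at 3 h Slc2a12 was called higher by limma-voom (0.0494) and without the ML1716 libraries (0.0175). Slc2a4, higher by 0.24 ± 0.09 with dexamethasone at 24 h (adjusted p = 0.143), was called by limma-voom (0.0339) and without WT dexamethasone replicate 5 (0.0384).

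**Figure D4:**
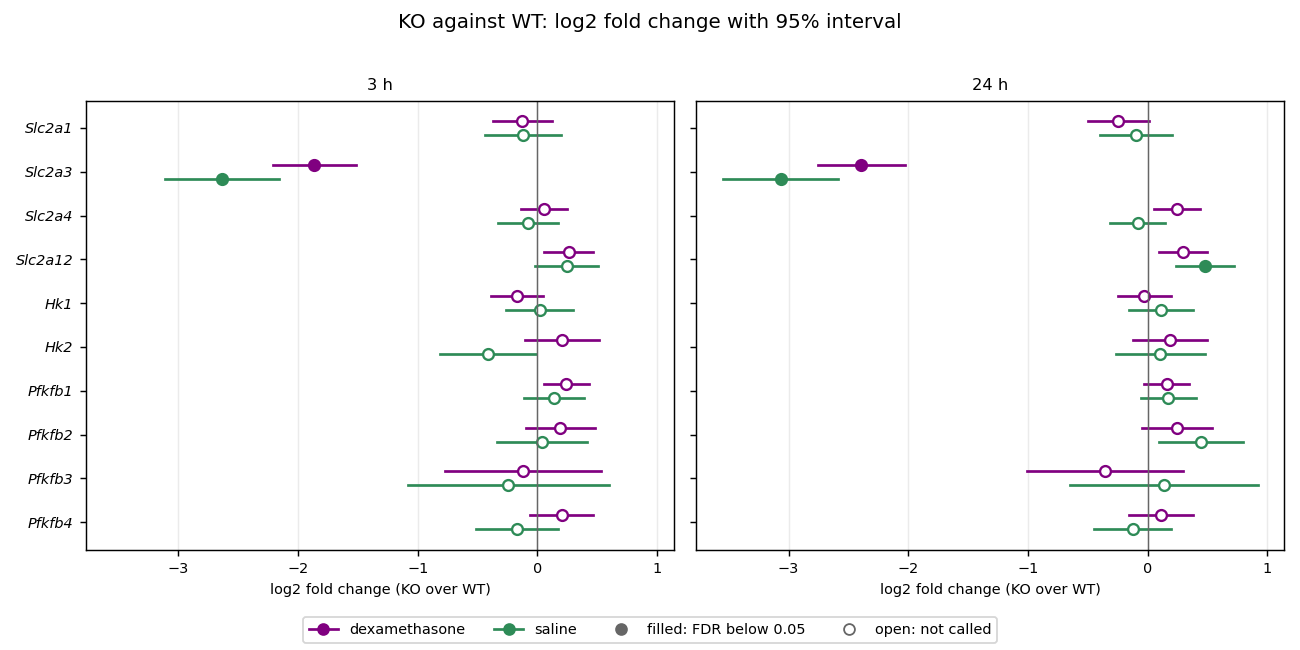
Log2 fold change of KO over WT (x axis) for each gene, at 3 h on the left and 24 h on the right, with dexamethasone above saline, lines for 95% intervals, and filled points for a false discovery rate below 0.05. Slc2a3 lies between -3.07 and -1.86 in the 4 comparisons, and the other 9 genes lie within 0.5 of 0.

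Slc2a3 also responded to dexamethasone within KO muscle. At 3 h the KO dexamethasone libraries, at 3.34 to 5.26 CPM, were all above the KO saline libraries, at 2.13 to 2.27 CPM. By edgeR the log2 fold change was 0.87 ± 0.22 (adjusted p = 0.00453), against 0.09 ± 0.18 in WT muscle (adjusted p = 0.801). At 24 h the values were 0.59 ± 0.24 in KO muscle (adjusted p = 0.108) and -0.09 ± 0.17 in WT muscle (adjusted p = 0.796). The genotypes were not shown to differ in this response: the difference was 0.77 ± 0.28 at 3 h (adjusted p = 0.999, unadjusted p = 0.0106) and 0.68 ± 0.29 at 24 h (adjusted p = 0.777, unadjusted p = 0.0266). None of the 10 genes was called for a genotype difference in the dexamethasone response, at 3 h (0% of all genes called) or at 24 h (0%). By edgeR's unadjusted p, 2 were under 0.05 at 3 h (Hk2 and Slc2a3) and 2 at 24 h (Slc2a3 and Slc2a4), and DESeq2 and limma-voom called 0 of the 10 at either time. The largest Pfkfb3 and Pfkfb4 differences were -0.49 (95% interval -1.51 to 0.52) at 24 h and 0.37 (95% interval -0.06 to 0.81) at 3 h, KO minus WT.

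After the low level of Slc2a3 in KO muscle was seen, the genes within 500 kb of it on chromosome 6 were looked up. Of 14 tested neighbours, Phc1, a Polycomb gene, was called in 3 of the 4 genotype comparisons. Between 1.5% and 5.19% of all genes were called in these 4 comparisons. Its log2 fold change in KO over WT was -0.59 ± 0.15 with dexamethasone at 3 h (adjusted p = 0.0199) and -0.50 ± 0.19 with saline at 3 h (adjusted p = 0.212). At 24 h it was -0.64 ± 0.15 with dexamethasone (adjusted p = 0.00651) and -0.70 ± 0.18 with saline (adjusted p = 0.0267). The other 13 neighbours were called in none of the 4 comparisons. Some were measured too loosely for this to show equal levels. The SE was 1.5 for Clec4e with saline at 3 h and 1.17 for Clec4d with saline at 24 h. A difference carried by this chromosome region and one that follows from the loss of Actn3 cannot be told apart in these groups.

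In whole muscle, fewer cells of a type and less RNA per cell cannot be told apart, so cell type markers are given beside these results. Their counts are to be read against the share of all genes called with dexamethasone. The lists were chosen with earlier results of these data known, so the counts do not test an excess. That share was 17.5% in KO and 14.9% in WT muscle at 3 h, and 10.9% in KO and 13.8% in WT muscle at 24 h. At 3 h the 8 endothelial markers summed to 285 to 374 CPM in KO dexamethasone libraries, against 421 to 516 in KO saline libraries, and to 302 to 374 CPM in WT dexamethasone libraries, against 425 to 525 in WT saline libraries. Of these 8, 4 were lower and 1 higher in KO muscle, and 5 were lower in WT muscle. The 4 satellite cell markers summed to 18.6 to 25.6 CPM in KO dexamethasone libraries, against 38 to 43 in KO saline libraries, and to 20.8 to 27.3 CPM in WT dexamethasone libraries, against 37.8 to 45.2 in WT saline libraries, with 3 of 4 lower in each genotype. Myod1 is in that list and also among the Slc2a4 factors below. At 3 h the 6 macrophage markers in the files summed to 164 to 212 CPM in KO dexamethasone libraries, against 141 to 163 in KO saline libraries. In WT muscle at 3 h they summed to 163 to 271 CPM with dexamethasone, against 166 to 177 with saline. At that time 2 of 6 were higher in KO (33.3%) and 1 of 6 in WT muscle (16.7%), and 0 were lower. At 24 h they summed to 147 to 162 CPM in KO dexamethasone libraries, against 172 to 210 in KO saline libraries, and to 138 to 150 CPM in WT dexamethasone libraries, against 187 to 325 in WT saline libraries. Of these, 1 of 6 was lower in KO muscle (16.7%, near the 10.9% of all genes) and 5 of 6 in WT muscle (83.3%). The 5 fibroblast markers summed at 24 h to 912 to 1070 CPM in KO dexamethasone libraries, against 1270 to 1390 in KO saline libraries, and to 939 to 1110 CPM in WT dexamethasone libraries, against 1240 to 1560 in WT saline libraries, with 2 of 5 lower in each genotype. No endothelial, satellite cell, macrophage or fibroblast marker was at 0 in a whole group. The part of these cell types in the responses of the 10 genes was not tested.

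Between the genotypes the endothelial, macrophage, fibroblast and satellite cell lists had 0 called markers in each of the 4 comparisons of KO with WT by edgeR, and 0 by DESeq2 and by limma-voom. Of all genes, edgeR called 1.5% with saline and 3% with dexamethasone at 3 h, and 3.17% with saline and 5.19% with dexamethasone at 24 h. By edgeR's unadjusted p, 0 to 3 markers of a list were under 0.05 in a comparison, the 3 being macrophage markers with saline at 24 h. The 7 adipocyte markers summed to 304 to 391 CPM in KO saline libraries at 3 h, against 419 to 799 in WT saline libraries, where 1 was lower by edgeR, 6 had an unadjusted p under 0.05, DESeq2 called 1 and limma-voom 4, with a median log2 fold change of -0.92. With dexamethasone at 3 h 2 of the 7 rose in KO muscle, where they summed to 394 to 606 CPM, against 304 to 391 in KO saline libraries. In WT muscle at 3 h edgeR called 0 of the 7 higher and 1 lower. Their sums there were 296 to 834 CPM with dexamethasone, against 419 to 799 with saline. The median log2 fold change of the 7 was 0.56 in KO and -0.28 in WT muscle. Of the 4 smooth muscle markers, 1 was lower in KO than in WT muscle with dexamethasone at 24 h (2 called by DESeq2 and by limma-voom). Of the 6 Schwann cell markers, 1 was lower in KO muscle with dexamethasone at 24 h and 0 in the other 3 comparisons. With dexamethasone at 24 h 3 of the 6 had an edgeR unadjusted p under 0.05, DESeq2 called 1 and limma-voom 3. The 6 lymphocyte markers summed to 1.43 CPM or less and the 5 neutrophil markers in the files to 8.6 CPM or less in every library, and erythroid markers reached 41.8 CPM. In KO muscle the erythroid sums at 3 h were 7.77 to 28.2 CPM with dexamethasone, against 4 to 5.87 with saline. At 24 h they were 3.28 to 5.64 CPM, against 7.03 to 8.98. Of 3 tested, edgeR called 1 higher in KO muscle at 3 h and 1 lower at 24 h. In WT muscle it called 0 at either time, and DESeq2 and limma-voom each called 0 at 3 h and 1 at 24 h. The 6 fibre markers and the 8 fast and slow fibre genes had 0 called members between the genotypes by edgeR in the 4 comparisons, with 0 to 3 under an unadjusted p of 0.05. DESeq2 called 0 or 1 and limma-voom 0 to 2 of each list. The part of these markers in the level of Slc2a3 was not tested.

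The other genes of glucose handling come from lists of the pathway, chosen with earlier results of these data known. Their counts stand beside the share of all genes called and do not test an excess. That share was 17.5% in KO and 14.9% in WT muscle at 3 h, and 10.9% in KO and 13.8% in WT muscle at 24 h. Of 7 other sugar transporters tested, 0 were called by edgeR in each of the 4 dexamethasone comparisons. By its unadjusted p, 1 was under 0.05 in each genotype at 3 h and 0 at 24 h, and DESeq2 and limma-voom each called 1 in KO muscle at 3 h and 0 elsewhere.

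Of 21 tested genes of the rest of glycolysis, 1 was called in KO muscle at 3 h and 0 by edgeR in WT muscle, where 4 had an unadjusted p under 0.05, DESeq2 called 0 and limma-voom 4. At 24 h there were 3 in KO (1 higher, 2 lower) and 1 in WT muscle at 24 h. Slc16a3, the lactate exporter gene MCT4, was the one that rose in both genotypes at 24 h, by 0.81 ± 0.22 in KO (adjusted p = 0.0149) and 0.82 ± 0.20 in WT muscle (adjusted p = 0.00548). Fbp2, the muscle fructose bisphosphatase, fell by 0.99 ± 0.29 in KO muscle at 24 h (adjusted p = 0.0248). The list's median log2 fold change was 0.11 in KO and 0.18 in WT muscle at 3 h, and -0.01 in KO and -0.15 in WT muscle at 24 h, beside medians of all genes between -0.01 and 0.01.

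Of the 14 tested genes of GLUT4 vesicle trafficking, 0 were called by edgeR at 3 h in either genotype. By its unadjusted p, 0 were under 0.05 in KO and 1 in WT muscle, DESeq2 called 0 in both, and limma-voom 1 in KO and 0 in WT muscle. At 24 h 2 were called in KO muscle, 1 higher and 1 lower, and 3 in WT muscle, 2 higher and 1 lower. Tbc1d1, a Rab GTPase-activating protein that holds GLUT4 vesicles back, averaged 32.6 ± 8.98 CPM in KO dexamethasone libraries, against 82.7 ± 14.4 in KO saline libraries, and 37.01 ± 7.57 CPM in WT dexamethasone libraries, against 70.7 ± 12.8 in WT saline libraries. It fell by 1.34 ± 0.21 in KO (adjusted p = 5.85e-05) and by 0.93 ± 0.19 in WT muscle (adjusted p = 0.00114). Aspscr1, the gene of the tether TUG, rose by 0.65 ± 0.14 in KO and by 0.45 ± 0.12 in WT muscle. Of 10 factors known to act on the Slc2a4 gene, 3 were called in KO muscle at 3 h (1 higher, 2 lower) and 5 in WT muscle (1 higher, 4 lower). Klf15, a glucocorticoid-induced factor, rose at 3 h by 1.29 ± 0.18 in KO and 1.21 ± 0.18 in WT muscle. Myod1, a myogenic factor, fell by 2.50 ± 0.25 in KO and 1.93 ± 0.24 in WT muscle. At 24 h 2 were called in WT muscle, both lower, and 0 by edgeR in KO muscle, where 1 had an unadjusted p under 0.05 and DESeq2 and limma-voom called 0.

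Arrdc4, an alpha-arrestin that takes glucose transporters off the surface, fell by 0.75 ± 0.17 in KO and 0.93 ± 0.18 in WT muscle at 3 h. It rose by 0.82 ± 0.18 in KO and 1.04 ± 0.16 in WT muscle at 24 h, all 4 with adjusted p of 0.00231 or less. Txnip, its better-known relative, rose by 0.83 ± 0.23 in WT muscle at 24 h (adjusted p = 0.0121) and had 0.61 ± 0.25 in KO muscle (adjusted p = 0.111). Of the 6 genes of that list, 2 were called at 3 h in KO and 3 in WT muscle, and at 24 h 3 in KO and 2 in WT muscle. Among 12 hypoxia response genes, 5 were called at 3 h in KO (4 higher, 1 lower) and 5 in WT muscle (3 higher, 2 lower), and at 24 h 4 in KO (all higher) and 5 in WT muscle (4 higher, 1 lower). Car9, a carbonic anhydrase, rose in all 4 comparisons, by 3.16 ± 0.33 in KO and 2.83 ± 0.34 in WT muscle at 3 h and by 2.63 ± 0.33 in KO and 2.13 ± 0.29 in WT muscle at 24 h. Vegfa, the angiogenic growth factor gene, fell at 3 h, by 0.54 ± 0.12 in KO and 0.77 ± 0.12 in WT muscle. Of 11 AMPK and insulin signalling genes, 2 were called at 3 h in each genotype (1 higher, 1 lower), which is 18.2% and near the share of all genes, and at 24 h 4 in KO (1 higher, 3 lower) and 5 in WT muscle (2 higher, 3 lower).

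**Figure D5:**
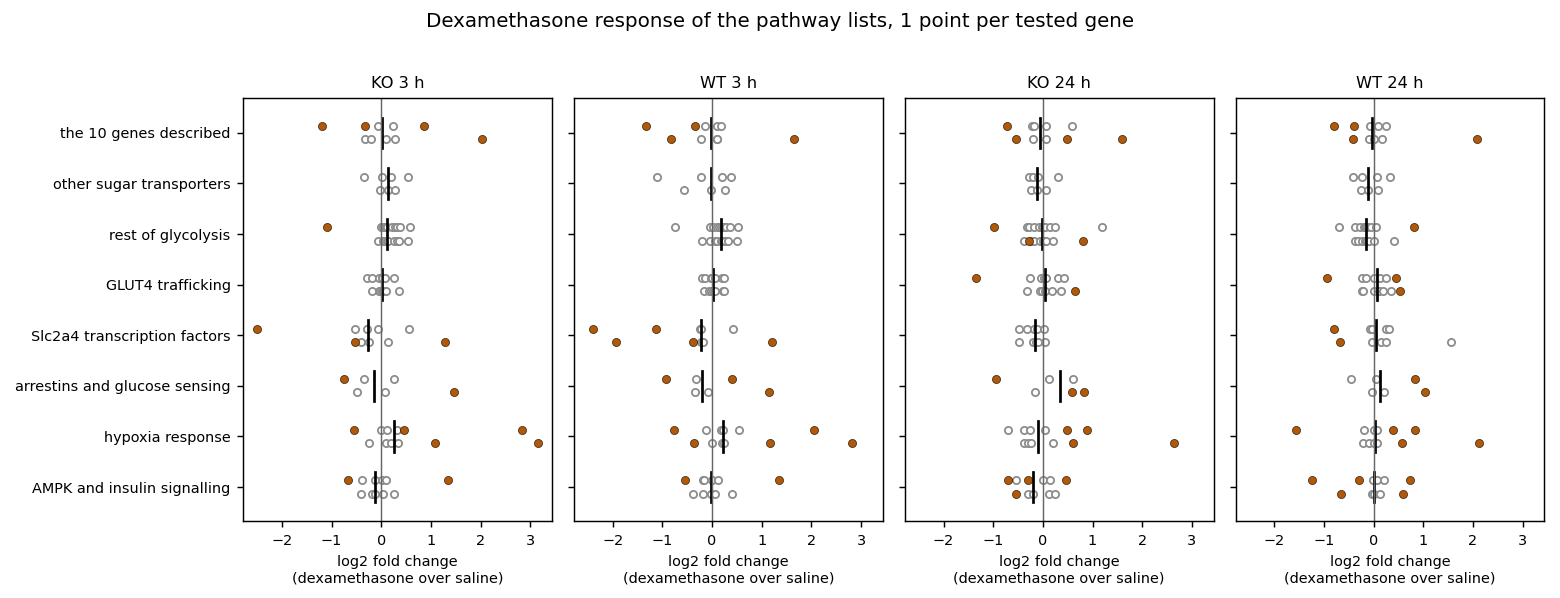
Each point is 1 tested gene of a list (rows), at its log2 fold change of dexamethasone over saline (x axis) in the 4 comparisons, filled orange where the false discovery rate is below 0.05, with a bar at the list median. In the rest of glycolysis at most 3 of 21 genes are filled in a panel, and in the hypoxia list 4 or 5 of 12.

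For the 4 genes with the widest range of group means, the genes most alike over the 8 groups were found by the root mean square difference of centred log2 CPM among 10980 others. Closest to Pfkfb3 were Eda2r (0.44), Klf10 (0.554) and Clec2d (0.561). Closest to Slc2a3 were Npnt (0.296), Pla2g7 (0.382) and Neto2 (0.419). Closest to Pfkfb4 were Sema6b (0.103), Lrrc8a (0.137) and 4833403I15Rik (0.139), and closest to Hk2 were Adam23 (0.0918), Svep1 (0.135) and Itih5 (0.144). This measure is not scaled to the range of a gene. The nearest distances of Pfkfb3, Slc2a3, Pfkfb4 and Hk2 fell in the order of their ranges, so they are not compared between the 4 genes.

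The authors' deposited tables give log2 fold changes for the same 4 dexamethasone comparisons, without stating how the contrast was coded. For Pfkfb4 at 3 h the authors' deposited table has 1.87 in KO and 1.54 in WT muscle, and for Pfkfb3 at 24 h 1.81 in KO and 2.05 in WT muscle. For Hk2 at 24 h the authors' deposited table has -0.74 in KO and -1.05 in WT muscle, and for Slc2a4 at 24 h 0.51 in KO and 0.18 in WT muscle. Hk1 in KO muscle at 24 h, at -0.29 with an adjusted p of 0.0401 in the authors' deposited table, was not called in the fit used here (-0.22 ± 0.12, adjusted p = 0.268). Pfkfb4 in WT muscle at 24 h, called here, has -0.34 with an adjusted p of 0.0522 in the authors' deposited table.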

How the data were processed

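RNA from quadriceps muscle was sequenced in 33 libraries with an unstranded TruSeq kit. The deposited files hold raw read counts per gene, 1 file per library. STAR, HTSeq and the mm10 build are named, without role or version, per the submitters' processing notes, and no source used here states the annotation or the strand setting. The authors' deposited tables of comparisons hold log2 fold changes and adjusted p-values, and limma 3.40.6 is named per the submitters' processing notes.

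Rows for reads with no feature (24.6 to 33.2% of a library) or an ambiguous one (0.188 to 0.3%) were left out. The counts were fitted with edgeR 4.0.16 in R 4.3.3: TMM scaling, filterByExpr (13955 of 23420 genes), a mean for each of the 8 groups over all 33 libraries, and the quasi-likelihood test with Benjamini-Hochberg adjustment over all tested genes, called below a false discovery rate of 0.05. There were 13 comparisons. CPM values use TMM library sizes. Alternatives were RLE scaling, library totals alone, no filter, a mean CPM of at least 1, DESeq2 1.42.0, limma-voom with sample weights (limma 3.58.1), only the groups compared, no libraries named ML1716, and leaving out each library in turn. The procedure was run on simulated counts with known changes, drawn with the spread estimated in the fit. No library was made to stand apart there, so that run does not show how the test behaves with such libraries. Among 55 pairs of libraries of a group the smallest chi-square per degree of freedom was 11.5, so all 33 were kept as separate libraries.

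The 10 genes and all lists were chosen with earlier results of these data known. All 10 genes are named in every comparison. From each list at most 4 genes are named, those with the smallest p over the 4 dexamethasone comparisons; cell type and fibre lists are free of that limit. The look at the neighbours of Slc2a3 was chosen after its values were seen. Promoters come from a RefSeq table (GRCm38.p6), and gene positions from the same build. A gene of the lists, with its list, is not reported here.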

Additional observations from a re-analysis of the deposited data

Results flagged for a closer look

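In 50 sets of 1 gene in 1 group of 4 or more libraries, 1 library stood far from the others: Pfkfb4 had 56.1 CPM in WT dexamethasone replicate 5 at 24 h, with the other 4 libraries between 34.9 and 40.0 CPM. The gap to the nearest library was 0.757 of the range of the group. It is the only library of its group named ML1716, it stood apart from the other 4 over all genes, and it had the lowest Pfkfb3 of the group (762 CPM). Such a test also marks some groups by chance.

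The response to dexamethasone differed between 24 h and 3 h, by a test of the difference itself, for 4 of the genes. In KO muscle the response at 24 h minus that at 3 h was 2.79 for Pfkfb3, -2.20 for Pfkfb4 and -0.64 for Slc2a1 on the log2 scale. In WT muscle it was 3.41 for Pfkfb3, -2.06 for Pfkfb4 and 0.59 for Slc2a12. Without KO saline replicate 2 at 3 h the KO value for Pfkfb3 was 1.93.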

How the results depend on the processing

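No paired analysis was possible because no label numbers the replicates of a group. Of 130 results for a gene in a comparison, 27 were called, 18 stayed called under every alternative, 9 were lost under at least 1, 9 others were gained under at least 1, and 0 of the called ones changed direction. With only the groups compared, 2 genes were called for dexamethasone in KO muscle at 3 h and 2 in WT muscle at 24 h (4 each in the full fit), and 1 between KO and WT saline muscle at 24 h (2 in the full fit). limma-voom called 2 genes between KO and WT dexamethasone muscle at 3 h and 3 at 24 h, and without the ML1716 libraries 2 were called at 3 h (1 each in the full fit). The cause was not tested. Without the ML1716 libraries the falls of Slc2a12 in KO muscle at 3 h (adjusted p = 0.054) and of Slc2a1 in KO muscle at 24 h (adjusted p = 0.0556) were lost.

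Leaving out 1 library at a time, the number of the 10 genes called for dexamethasone was 2 to 5 in KO and 3 to 4 in WT muscle at 3 h, and 3 to 4 in KO and 2 to 3 in WT muscle at 24 h. It was 2 to 4 (KO) and 3 to 4 (WT) for the change with time, 1 to 1 for KO against WT at 3 h with either treatment, and 1 to 3 at 24 h with either treatment. It was 0 to 0 for the genotype differences in response and for saline over time.

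Over all alternatives the number of all genes called for dexamethasone was 1491 to 3547 in KO (2446 in the full fit) and 1528 to 3234 in WT muscle (2084) at 3 h, and 730 to 1759 in KO (1520) and 1247 to 3001 in WT muscle (1919) at 24 h. For KO against WT it was 274 to 873 with dexamethasone and 76 to 1221 with saline at 3 h, and 298 to 1480 with dexamethasone and 100 to 730 with saline at 24 h. For the change with time it was 1141 to 2097 in KO and 1743 to 3613 in WT muscle, for saline over time 128 to 1066, and for genotype differences in response 0 to 8 at 3 h and 0 to 4 at 24 h. Groups of 3 to 5 libraries limit the precision of small changes such as those of Slc2a1 and Slc2a12.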

Other observations

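In each dexamethasone comparison most of the 11 AMPK and insulin signalling genes were not called, and those named here were. At 3 h 18.2% of the list were called in each genotype, against 17.5% of all genes in KO and 14.9% in WT muscle. At 24 h 36.4% were called in KO and 45.5% in WT muscle, against 10.9% and 13.8% of all genes. Foxo1, a forkhead factor that insulin keeps out of the nucleus, had a log2 fold change of 1.35 ± 0.16 in KO and 1.36 ± 0.16 in WT muscle at 3 h, and -0.55 ± 0.15 in KO and -0.65 ± 0.14 in WT muscle at 24 h (SE), all with edgeR adjusted p below the threshold. Insr, the insulin receptor gene, rose at 24 h by 0.46 ± 0.11 in KO and 0.60 ± 0.10 in WT muscle. Prkag3, a muscle AMPK subunit gene, fell at 24 h by 0.71 ± 0.18 in KO and 1.24 ± 0.17 in WT muscle. From the hypoxia list, Hif3a, a hypoxia-inducible factor gene, rose at 3 h by 2.84 ± 0.24 in KO and 2.06 ± 0.23 in WT muscle.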
